A study of Mus musculus with 4 samples.

Results

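Glycolysis and the response to low oxygen were followed through 35 genes in mouse articular cartilage, out of 24532 genes in the deposited expression table. The genes were taken by symbol and cover glucose uptake, the glycolytic enzymes, the fate of pyruvate and lactate, the hypoxia-inducible factors (HIFs) with their prolyl hydroxylases, and HIF targets outside glycolysis. Eno1 and its copy Eno1b were summed, which leaves 34 values in each library. All 34 were above 0 in each of the 4 libraries.

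RNA was sequenced from 4 groups of wild-type C57BL/6 mice, which were sham and injured cartilage of young mice and sham and injured cartilage of adult mice. Where 4 values of a gene follow each other, they stand in this order. Young mice were 3 weeks old in all sources. Adult mice were 12 weeks old in the sample titles, 14 weeks in the age field and 10 weeks in the study's methods. The titles give the injury as DMM surgery (destabilization of the medial meniscus), whereas the methods describe FTCI, a full-thickness injury of the cartilage made with a needle. The injured tissue and the young sham tissue were taken at day 3, and the name of the adult sham column gives days 3 to 14. By the methods, tissue of 10 injured or 5 uninjured male mice was pooled, which gave 1 library per group. No difference below therefore has a replicate check, an SD or a test.

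The labelled cell type was the chondrocyte, and 9 of 10 chondrocyte markers looked for, Col2a1 and Acan among them, were in the table and reached 1 FPKM in every library. Their summed level was 14732 FPKM in sham and 13094 in injured tissue of young mice, and 37598 and 15305 in sham and injured tissue of adult mice. In adult sham 26541 FPKM of this sum were Cytl1. The sum does not show the direction of most markers. Of the 9, 5 were at least 2-fold lower in adult than in young sham and 2 were higher, beside 10.6% and 2.66% of all genes. The adult sham library stood apart from the others, with 26.5% of all FPKM in its 10 highest genes against 14.7 to 17.5% elsewhere. If the smallest FPKM step is taken as 1 fragment, the libraries held 25600000 to 30800000 fragments. On that basis all values of the 34 genes rested on at least 112 fragments, for a counting error of at most 9.46%, except 2 low values named with their genes.

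Articular cartilage has no blood vessels, and its chondrocytes live in low oxygen and make most of their ATP by glycolysis. Glucose enters through facilitative transporters, is phosphorylated by hexokinases and is split and oxidized to pyruvate, which lactate dehydrogenase turns into lactate for export. When oxygen is scarce, prolyl hydroxylases no longer mark the HIF alpha subunits for degradation, and the HIFs bind short elements with the core ACGTG or GCGTG near genes for glucose uptake, glycolysis, mitophagy and pH control.

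Ldha ranked between 45 and 90 among all genes by FPKM in the 4 libraries, and the 34 genes spanned from 0.0262 FPKM (Car12 in adult sham) to 1171 FPKM (Eno1 with Eno1b in adult injured). FPKM are fragments per length of transcript and per mapped fragment of the library, so that levels can be compared between genes. The summed level of 18 glycolytic enzyme and lactate dehydrogenase genes was 4920 FPKM in sham and 5438 in injured tissue of young mice, against 4970 and 6470 in adult mice. These sums were 1.00%, 1.02%, 0.988% and 1.38% of all FPKM. Adult injured was thus the highest of the 4 on this scale. After median-of-ratios scaling, which sets the libraries to a common level over all genes, the sums were 4494, 4912, 6153 and 6334, and both adult libraries were higher than both young ones.

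**Figure D1:**
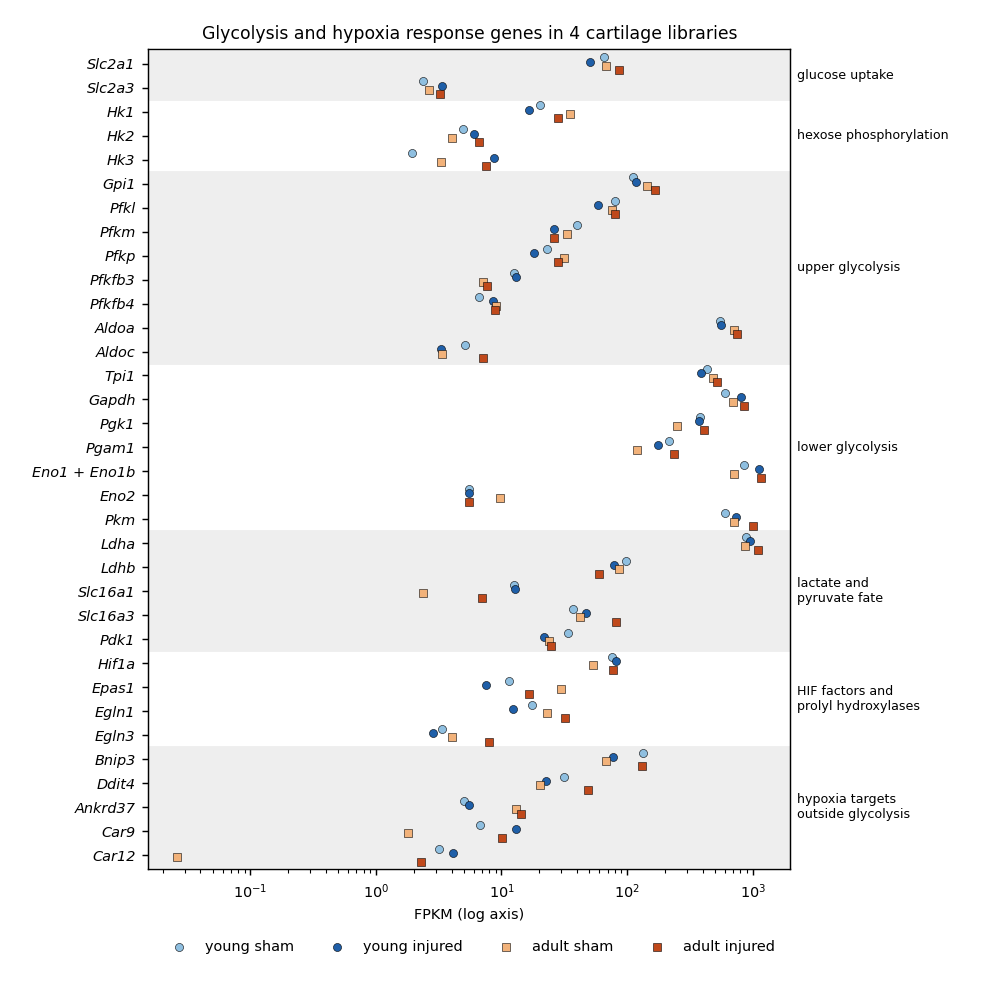
Level of each gene in the 4 libraries, as FPKM on a log axis, with 1 point for each pooled library and genes ordered by role. The abundant enzymes Ldha, Aldoa, Gapdh, Pkm and Eno1 with Eno1b sit between 553 and 1171 FPKM in every library, while Car12 in adult sham stands alone at 0.0262 FPKM.

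Ratios between libraries are given as the log2 ratio of FPKM + 1, which understates the change of genes with low levels, and a gene was said to rise or fall only where this ratio reached 2-fold. There were 4 comparisons. The injury comparison at each age asks what injury did to the tissue, and the comparison of sham tissue asks what differed with age before injury. The comparison of injured tissue sets the levels of young mice after injury beside those of adults. It also holds any difference already present between the sham tissues. They share libraries, since each sham library stands in its injury comparison and in the comparison of sham tissue, and each injured library likewise stands in 2 comparisons. Scaling mattered for the adult sham library. Over the 10891 genes that reached 1 FPKM in every library, the median log2 ratio of adult injured over adult sham was 0.23 in FPKM and -0.06 after median-of-ratios scaling, and that of adult sham over young sham was -0.30 and 0.07. Log2 ratios that involve adult sham are therefore followed by their value after this scaling, in brackets or in words.

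Several genes known as HIF targets had injury ratios of opposite sign at the 2 ages. Bnip3, Ddit4, Egln3, Egln1, Pgam1, Aldoc and Pgk1 were lower in injured than in sham tissue of young mice and higher in injured than in sham tissue of adult mice, and these directions held in FPKM, TPM (FPKM rescaled to the same sum in each library), median-of-ratios and quantile scaling. They were 7 of 34 genes, or 20.6%, a share not far above the 14.6% of all 18180 genes above 0 that had this pattern. No gene of the 34 had the reverse pattern under all 4 scalings, against 4.92% of all genes. The differences between the ages were large for some and small for others, as the values below show.

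Bnip3, a mitophagy receptor of the outer mitochondrial membrane, was at 133.8 and 76.9 FPKM in sham and injured tissue of young mice, and 67.5 and 131.7 FPKM in that of adult mice. The level in injured tissue of each age was thus close to the level in sham tissue of the other. The log2 ratio of injured over sham was -0.79 for young and 0.95 for adult mice, and 0.62 in adult mice after median-of-ratios scaling. Ddit4, an inhibitor of mTORC1 signalling induced by stress and hypoxia, was at 31.6, 22.7, 20.4 and 48.5 FPKM in that order. Its level rose in adult injured tissue, with a log2 ratio of 1.21 (0.89 after median-of-ratios scaling, under 2-fold), and had a ratio of -0.46 in young mice.

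Both prolyl hydroxylases of the list had the same contrast. Egln3, a hydroxylase that is itself a HIF target, was at 3.35 FPKM in sham and 2.86 in injured tissue of young mice, and 4.01 and 8.02 in sham and injured tissue of adult mice. Its log2 ratio was -0.17 for young and 0.85 for adult mice (0.57 after median-of-ratios scaling). Egln1, the main oxygen sensor that marks HIF alpha subunits, was at 17.4, 12.3, 22.9 and 32.0 FPKM. Its log2 ratio was -0.47 for young and 0.47 for adult mice, the latter 0.14 after median-of-ratios scaling. Egln2, a prolyl hydroxylase outside the list, did not have this contrast. It was at 22.7, 22.9, 34.1 and 25.3 FPKM, with ratios of 0.01 and -0.42 (the latter -0.75 after median-of-ratios scaling).

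Of the 3 glycolytic genes with this contrast, Pgam1 and Aldoc differed most. Pgam1, the phosphoglycerate mutase of most tissues, was at 215.2 FPKM in sham and 175.1 in injured tissue of young mice, against 119.0 and 236.1 in adult mice. Its log2 ratio was -0.30 for young and 0.98 for adult mice (0.65 after median-of-ratios scaling). Aldoc, an aldolase best known from brain, was at 5.14, 3.30, 3.37 and 7.09 FPKM, with ratios of -0.51 and 0.89 (0.62 after median-of-ratios scaling). It is a minor aldolase here, at 0.468 to 0.927% of the summed aldolase FPKM. Pgk1, the phosphoglycerate kinase, was nearly level in young mice at 378.4 FPKM in sham and 377.0 in injured tissue, a ratio of -0.01. In adult mice it was at 249.3 and 410.8 FPKM, a ratio of 0.72 (0.38 after median-of-ratios scaling). For Pgk1, 54.7% of the 31-base words of its transcripts also occur in another gene, and for Pgam1 37.1%, so that their values depend on how reads were divided between copies. For Bnip3 the share was 20.3%, and for Ddit4, Egln1, Egln3 and Aldoc it was 0. Among genes described below, it was 34.7% for Pkm, 33.0% for Ldhb, 28.5% for Eno1, 27.2% for Gapdh and 19.6% for Ldha. The same limit holds for their values.

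The sequence upstream of these 7 genes is shown as an example of the HIF core letters near these genes, with that of Car9, a textbook HIF target described below. The pattern of their ratios was, as given above, not far more common here than among all genes. Each line is the 250 bases before the RefSeq transcription start in GRCm38.p6 (mm10), read 5′ to 3′ on the strand of the gene. Capitals mark ACGTG and GCGTG, the core letters of the hypoxia response element, on either strand, so that CACGT and CACGC are also in capitals, and CACGTG holds ACGTG on both strands.
Bnip3, chr7:138909507-138909756 (- strand): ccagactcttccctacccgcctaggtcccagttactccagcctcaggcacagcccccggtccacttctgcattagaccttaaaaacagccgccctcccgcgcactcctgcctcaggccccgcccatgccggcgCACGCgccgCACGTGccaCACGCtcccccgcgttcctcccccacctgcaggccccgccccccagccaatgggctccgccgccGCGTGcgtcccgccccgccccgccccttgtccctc
Ddit4, chr10:59951771-59952020 (- strand): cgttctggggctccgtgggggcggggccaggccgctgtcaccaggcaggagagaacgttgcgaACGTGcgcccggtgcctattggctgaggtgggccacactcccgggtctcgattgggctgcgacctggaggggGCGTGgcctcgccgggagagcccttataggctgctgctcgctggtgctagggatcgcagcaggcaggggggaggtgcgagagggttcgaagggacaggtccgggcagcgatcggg
Egln3, chr12:54203875-54204124 (- strand): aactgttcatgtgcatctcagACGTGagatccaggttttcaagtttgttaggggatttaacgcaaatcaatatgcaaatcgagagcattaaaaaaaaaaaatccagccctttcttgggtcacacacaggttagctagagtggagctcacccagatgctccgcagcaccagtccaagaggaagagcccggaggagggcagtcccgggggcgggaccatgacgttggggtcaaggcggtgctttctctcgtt
Egln1, chr8:124949255-124949504 (- strand): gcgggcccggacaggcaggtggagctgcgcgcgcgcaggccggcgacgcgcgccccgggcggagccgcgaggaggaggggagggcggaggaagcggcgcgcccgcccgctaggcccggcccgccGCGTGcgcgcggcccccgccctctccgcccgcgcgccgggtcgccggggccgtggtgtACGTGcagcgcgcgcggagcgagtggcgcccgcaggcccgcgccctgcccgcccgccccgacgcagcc
Pgam1, chr19:41911621-41911870 (+ strand): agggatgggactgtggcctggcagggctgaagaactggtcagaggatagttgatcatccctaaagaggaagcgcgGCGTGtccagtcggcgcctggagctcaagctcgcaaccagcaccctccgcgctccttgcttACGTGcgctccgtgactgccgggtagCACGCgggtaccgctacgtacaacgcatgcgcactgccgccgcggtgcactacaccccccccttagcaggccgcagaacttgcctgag
Aldoc, chr11:78322823-78323072 (+ strand): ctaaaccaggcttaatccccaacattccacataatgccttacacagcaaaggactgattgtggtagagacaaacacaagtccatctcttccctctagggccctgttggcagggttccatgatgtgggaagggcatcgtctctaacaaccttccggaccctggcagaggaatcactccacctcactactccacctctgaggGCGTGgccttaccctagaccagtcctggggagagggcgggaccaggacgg
Pgk1, chrX:106186850-106187099 (+ strand): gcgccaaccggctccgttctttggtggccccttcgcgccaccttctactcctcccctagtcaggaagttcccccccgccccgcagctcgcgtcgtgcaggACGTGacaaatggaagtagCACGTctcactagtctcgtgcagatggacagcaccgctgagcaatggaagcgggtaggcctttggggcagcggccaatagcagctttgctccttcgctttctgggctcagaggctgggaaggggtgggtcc
Car9, chr4:43506776-43507025 (+ strand): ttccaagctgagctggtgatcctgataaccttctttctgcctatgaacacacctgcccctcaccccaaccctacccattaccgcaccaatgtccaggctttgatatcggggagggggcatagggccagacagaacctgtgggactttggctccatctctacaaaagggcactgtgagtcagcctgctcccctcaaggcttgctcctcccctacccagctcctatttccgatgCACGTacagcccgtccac

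ACGTG stood in all of these windows except that of Aldoc, which held GCGTG alone. Of the 35 genes, 32 had an upstream sequence in the RefSeq table, and Eno1b, Epas1 and Slc2a3 did not. In those 32 genes ACGTG occurred within 250 bases before a start in 19, or 59.4%, against 18.5% of 27025 genes with such a sequence. GCGTG also occurred in 19 of 32, against 30.9%. Either occurred in 28 of 32, or 87.5%, against 41.5%. A gene with several starts was counted if any of them had the letters. Counted by start, ACGTG occurred in 22 of 45 sequences, or 48.9%, against 16.6% of 32851. The genes were listed as glycolysis and hypoxia genes, known HIF targets among them, so that the higher share is no independent result. A match of 5 letters is a description of the sequence and not a measured binding site, and no binding was measured here.

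**Figure D2:**
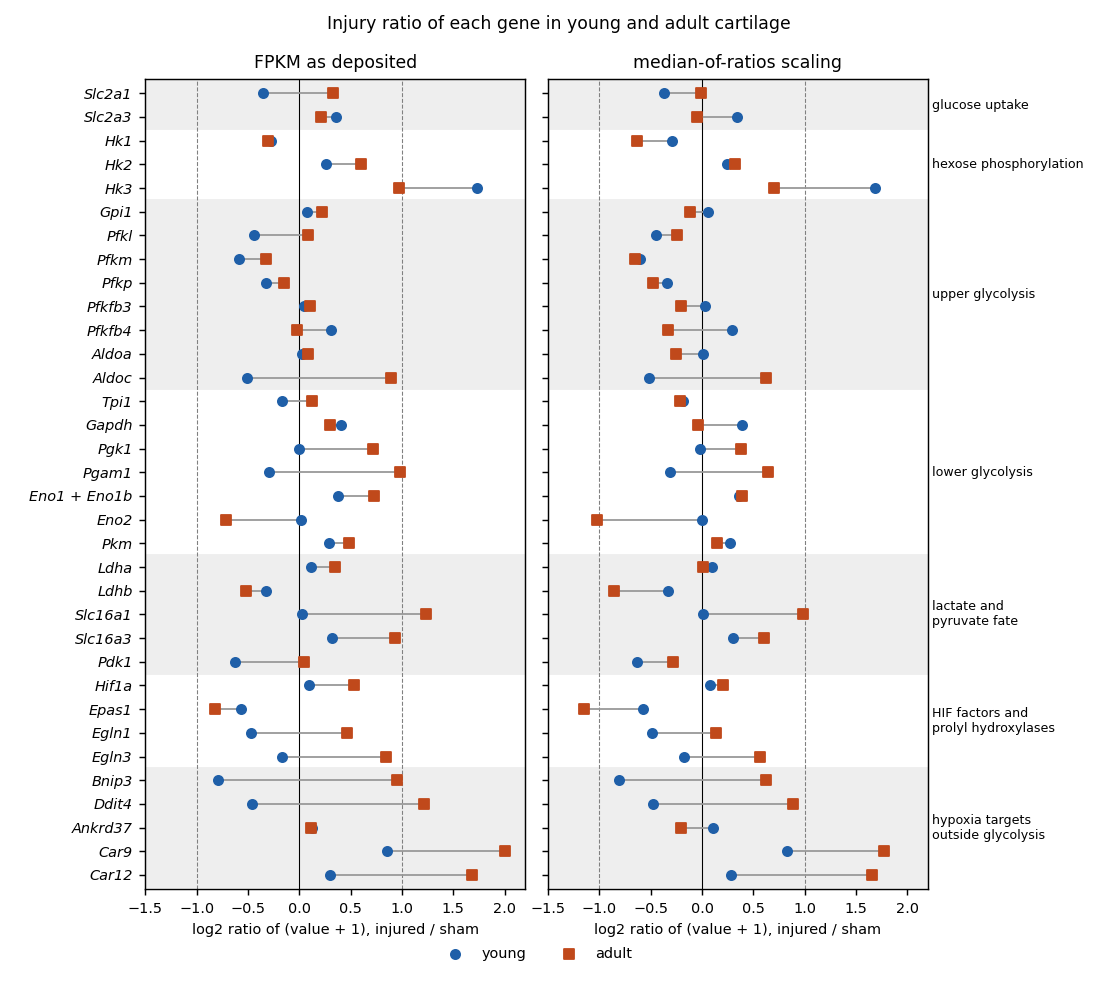
Log2 ratio of injured over sham tissue, on value + 1, for each gene in young (circles) and adult mice (squares), from FPKM as deposited (left) and after median-of-ratios scaling (right). Dashed lines mark 2-fold. Bnip3 lies at -0.79 for young and 0.95 for adult mice on the left, and in the right panel the adult points lie further left while the gap between the ages exceeds 2-fold for Bnip3, Ddit4, Aldoc and Car12 in both panels.

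The contrast between the ages was also counted by size. The injury ratio of adult mice exceeded that of young mice by at least 2-fold for 8 of 34 genes, or 23.5%, which were Aldoc, Pgam1, Slc16a1, Egln3, Bnip3, Ddit4, Car9 and Car12, against 4.6% of all genes. After median-of-ratios scaling they were 4 of 34, or 11.8%, against 2.65% of all genes, and those were Aldoc, Bnip3, Ddit4 and Car12. No gene exceeded 2-fold the other way, against 1.64% of all genes, and after median-of-ratios scaling Eno2 did, against 3.12%. Without a limit on size, the count depended on the scale. In FPKM 25 of 34 had the larger injury ratio in adult mice, and so had 66.3% of all genes. After median-of-ratios scaling the count was 17 of 34, beside 49.4% of all genes. It was 30 of 34 in TPM, beside 75.9%, and 24 of 34 in quantile scaling, beside 50.9%.

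Of the glucose transporters among the 34 genes, Slc2a1 (GLUT1), the basal transporter of chondrocytes, made up 93.8 to 96.5% of the summed FPKM of Slc2a1 and Slc2a3. Slc2a10, a transporter outside the 34 genes, was at 21.0, 15.3, 17.9 and 15.7 FPKM and is not in this sum. Glucose uptake itself was not measured. Slc2a1 was at 65.3 and 50.9 FPKM in sham and injured tissue of young mice, and 67.9 and 85.5 FPKM in that of adult mice. Its log2 ratio for injury was -0.36 for young and 0.33 for adult mice, and the adult ratio was -0.01 after median-of-ratios scaling. Slc2a3 (GLUT3), a transporter of high affinity, was at 2.39, 3.34, 2.65 and 3.21 FPKM, and was slightly higher in injured than in sham tissue at both ages in FPKM, while its adult ratio was -0.05 after median-of-ratios scaling.

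The hexokinases trap glucose in the cell as glucose phosphate, and their makeup differed with injury. Hk3, a hexokinase of myeloid blood cells, was at 1.94 FPKM in sham and 8.78 in injured tissue of young mice, and 3.32 and 7.47 in sham and injured tissue of adult mice. It rose in young injured tissue with a log2 ratio of 1.73, and its ratio of 0.97 in adult mice (0.70 after median-of-ratios scaling) was short of 2-fold. The share of Hk3 in the summed hexokinase FPKM, which scaling by 1 factor per library does not alter, was 7.19% in sham and 28% in injured tissue of young mice, and 7.81% and 17.6% in adult mice. Hk1, the hexokinase of most tissues, was the most abundant in each library, at 20.2, 16.5, 35.2 and 28.4 FPKM. Its share was 74.7% in sham and 52.7% in injured tissue of young mice, and 82.8% and 66.9% in adult mice, and so lower after injury at both ages. Hk2, the inducible hexokinase and a HIF target, was at 4.89, 6.06, 4.0 and 6.56 FPKM, with injury ratios of 0.26 and 0.60 (the latter 0.32 after median-of-ratios scaling).

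Markers of other cell types differed between the libraries as well. The sums of macrophage, neutrophil and endothelial markers all had the same order over the libraries as Hk3. The 11 macrophage markers, led by Lyz2 and C1qb, summed to 192.6 FPKM in sham and 1925 in injured tissue of young mice, against 327.4 and 1671 in adult mice. The 10 neutrophil markers summed to 1227, 2505, 1621 and 1965 FPKM, and the 7 endothelial markers to 16.3, 79.7, 18.0 and 65.8. The 9 erythroid markers in the table summed to 9680, 18447, 6956 and 3032 FPKM, and the 8 osteoblast markers to 824.4, 1537, 5786 and 6284. No marker of these lists was at 0 in any library. In bulk tissue, fewer cells of a type and less RNA per cell cannot be told apart, and the part of these cells in the values of Hk3 and the other genes was not tested.

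In upper glycolysis, Gpi1, the glucose phosphate isomerase, was at 111.2 and 116.8 FPKM in sham and injured tissue of young mice, and 143.5 and 167.4 FPKM in that of adult mice. Aldoa, the main aldolase, was at 552.9, 561.8, 715.8 and 757.5 FPKM. For both, either adult library was above either young one and the injury ratios in FPKM were at most 0.22, while the adult ratios after median-of-ratios scaling were -0.12 for Gpi1 and -0.26 for Aldoa. The 3 phosphofructokinases, which catalyse the committed step, summed to 143.4 FPKM in sham and 103.5 in injured tissue of young mice, and 140.2 and 134.9 in sham and injured tissue of adult mice. Young injured was the lowest, and each of the 3 was lower in injured than in sham tissue of young mice.

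Pfkl, the liver type of phosphofructokinase, led in every library, at 80.5, 59.2, 75.9 and 80.7 FPKM. Pfkm, the muscle type, was at 40.1, 26.3, 33.0 and 26.1 FPKM, and its share of the family was 27.9, 25.4, 23.5 and 19.3%. Pfkp, the platelet type, was at 22.8, 18.0, 31.3 and 28.1 FPKM. The 14 markers of skeletal muscle, led by Acta1 and Tnni2, summed to 1087, 848.6, 2040 and 567.1 FPKM, and their part in the values of Pfkm was not tested. Pfkfb3 and Pfkfb4 make and break the sugar phosphate that activates phosphofructokinase. Pfkfb3 was at 12.5, 12.9, 7.12 and 7.70 FPKM and Pfkfb4 at 6.67, 8.48, 9.09 and 8.93. Pfkfb3 made up 65.2 and 60.4% of the pair in young sham and injured tissue, and 43.9 and 46.3% in adult sham and injured tissue.

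In lower glycolysis no gene reached 2-fold with injury in FPKM. Gapdh, which oxidizes the triose phosphate, was at 607.6 FPKM in sham and 803.4 in injured tissue of young mice, against 694.2 and 853.5 in adult mice, with ratios of 0.40 and 0.30. Tpi1, the triose phosphate isomerase, was at 435.5, 388.5, 479.4 and 523.6 FPKM. Pkm, the pyruvate kinase of all tissues but liver and red cells, was at 600.6, 731.5, 712.4 and 999.0 FPKM, with ratios of 0.28 and 0.49, the latter 0.15 after median-of-ratios scaling. Gapdh and Pkm were higher in injured than in sham tissue at both ages in FPKM, but the adult ratio of Gapdh was -0.04 after median-of-ratios scaling.

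Enolase was the most abundant enzyme family after lactate dehydrogenase by its mean over the libraries. Eno1 with Eno1b was at 860.6 and 1115 FPKM in sham and injured tissue of young mice, and 707.4 and 1171 FPKM in that of adult mice, a log2 ratio of 0.37 for young and 0.73 for adult mice. After median-of-ratios scaling these ratios were 0.36 and 0.39 and the difference between the ages was small. The copy alone was at 0.0432 FPKM in young sham, which is about 2 fragments, and at 58.0, 54.1 and 48.9 FPKM in the other libraries. Its transcript is annotated at 2 places, on chromosomes 4 and 18, and 89.0% of its 31-base words occur in another gene, so that only the sum was compared. Eno2, the enolase of neurons, was at 5.47, 5.52, 9.65 and 5.49 FPKM. It stood apart in adult sham, with an injury ratio of -0.72 in adult mice that reached -1.02 after median-of-ratios scaling.

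Lactate dehydrogenase was almost all Ldha, the subunit that favours lactate, at 878.5 FPKM in sham and 947.6 in injured tissue of young mice, and 866.9 and 1102 in sham and injured tissue of adult mice. Ldhb, which favours pyruvate, was at 98.2, 78.4, 85.8 and 59.4 FPKM. Ldhb was lower in injured than in sham tissue at both ages, and its share of the family was 10.1% in sham and 7.64% in injured tissue of young mice, and 9.0% and 5.12% in adult mice. Pdk1, a kinase and HIF target that keeps pyruvate out of the mitochondria, was at 34.0, 21.7, 23.8 and 24.6 FPKM, and was highest in young sham.

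Of the lactate transporters, Slc16a1 differed by 2-fold between the sham tissues. Slc16a1 (MCT1), a carrier that moves lactate either way, was at 12.5 FPKM in sham and 12.8 in injured tissue of young mice, against 2.39 and 6.99 in adult mice. It was at least 2-fold lower in adult than in young sham tissue, with a log2 ratio of -2.0 (-1.65 after median-of-ratios scaling). It rose with injury in adult mice with a ratio of 1.24, or 0.99 after median-of-ratios scaling, just under 2-fold, and had a ratio of 0.03 in young mice. Slc16a3 (MCT4), the HIF-regulated exporter of glycolytic cells, was at 37.4, 46.9, 42.4 and 82.0 FPKM, with injury ratios of 0.32 and 0.93 (the latter 0.60 after median-of-ratios scaling). Slc16a1 therefore made up 25.1 and 21.4% of the summed FPKM of both carriers in young sham and injured tissue, and 5.33 and 7.85% in the adult libraries.

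Of the HIF alpha subunits, Epas1 differed with age by 2-fold and Hif1a did not. Hif1a was at 75.5 and 80.9 FPKM in sham and injured tissue of young mice, and 53.2 and 77.5 FPKM in that of adult mice. Its log2 ratio of adult over young sham was -0.50 in FPKM and -0.07 after median-of-ratios scaling, and that of young over adult injured was 0.06 and -0.05. Epas1, the HIF alpha subunit linked to catabolic changes of cartilage, was at 11.5, 7.46, 29.9 and 16.5 FPKM. It was higher in adult than in young sham tissue by a log2 ratio of 1.3 (1.72 after median-of-ratios scaling) and higher in adult than in young injured tissue. It was lower in injured than in sham tissue at both ages, by ratios of -0.57 and -0.82, the latter -1.15 after median-of-ratios scaling. Epas1 made up 13.3 and 8.44% of both subunits in sham and injured tissue of young mice, and 36.0 and 17.6% in adult mice. Endothelial cells are a known source of Epas1, and the part of the endothelial cells, whose marker sums are given above, in the Epas1 values was not tested. These are transcript levels, and HIF activity is set mainly by the stability of the proteins, which were not measured.

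**Figure D3:**
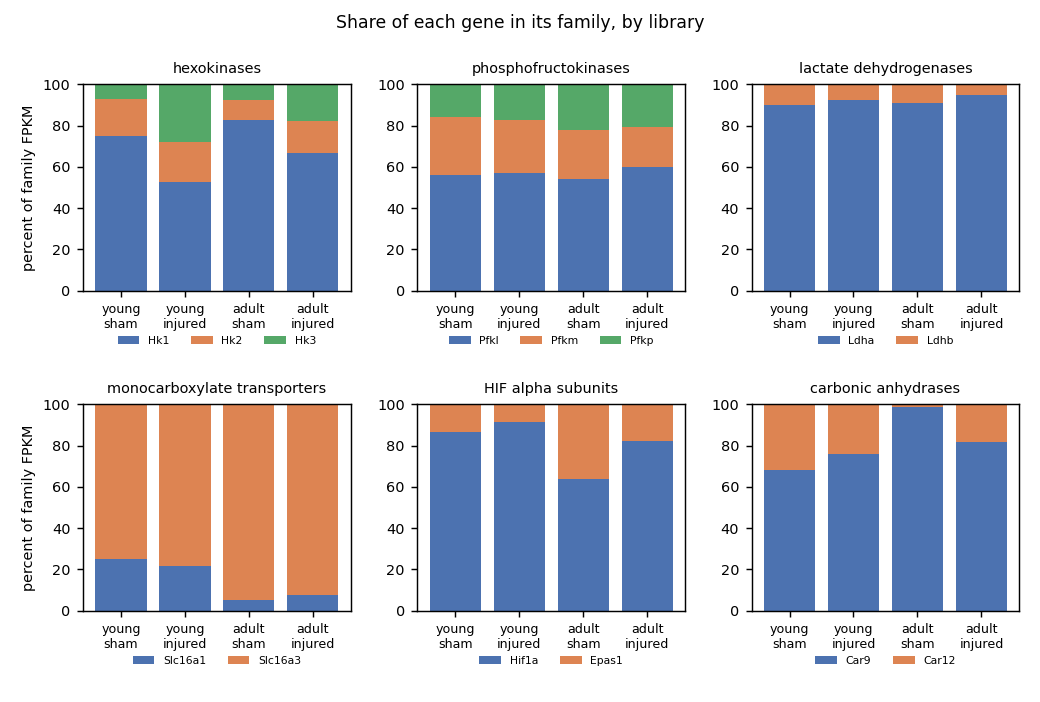
Share of each gene in the summed FPKM of its family, in percent, for 6 families and the 4 libraries, 1 bar for each pooled library. Hk3 takes 28% of hexokinase in young injured against 7.19% in young sham, Slc16a1 is small in both adult libraries, and Epas1 is largest in adult sham at 36.0%.

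The carbonic anhydrases Car9 and Car12, membrane enzymes that buffer the acid made by glycolysis, had the largest injury ratios of the 34 genes in adult mice. Car9 was at 6.70 FPKM in sham and 12.9 in injured tissue of young mice, and 1.79 and 10.2 in sham and injured tissue of adult mice. It rose in adult injured tissue with a log2 ratio of 2.0 (1.77 after median-of-ratios scaling), and its ratio in young mice was 0.85. Car12 was at 3.16, 4.11, 0.0262 and 2.30 FPKM, and the value of adult sham is about 3 fragments. Its FPKM in adult injured was 87.7 times that in adult sham, with an exact 95% interval of 29.6 to 429 that covers counting error only. Both genes were lowest in adult sham, where their ratio to young sham was -1.46 and -2.02 on the log2 scale (-1.15 and -1.91 after median-of-ratios scaling), so that the size of the adult ratio goes with a low sham level. Injured tissue differed less between the ages, by log2 ratios of young over adult of 0.32 for Car9 and 0.63 for Car12. Ankrd37, an ankyrin repeat gene induced by HIF, was at 5.02, 5.55, 13.1 and 14.2 FPKM and followed age and not injury.

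Together the 8 HIF response genes outside glycolysis (Bnip3, Ddit4, Egln1, Egln3, Ankrd37, Car9, Car12 and Pdk1) summed to 235.1 FPKM in sham and 159.0 in injured tissue of young mice, against 153.5 and 271.5 in adult mice. The sum was lower after injury in young and higher after injury in adult mice, and Bnip3 was its largest term, at 133.8 and 76.9 FPKM in young mice. The genes did not all share the young direction, since Ankrd37, Car9 and Car12 were higher in injured than in sham tissue of young mice. Bnip3, Ddit4, Egln1 and Egln3 were already named above for this contrast, so the sum partly restates them. After median-of-ratios scaling the sums were 214.8, 143.6, 190.1 and 265.8 and had the same order within each age.

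Counted over the whole list, injury moved few genes past 2-fold. In young mice Hk3 rose, 1 of 34 genes or 2.94%, against 4.56% of all 18180 genes, and none fell, against 1.27%. The shares of all genes were 4.35% and 1.24% after median-of-ratios scaling, with the same counts of genes. In adult mice Slc16a1, Ddit4, Car9 and Car12 rose, 4 of 34 or 11.8%, against 6.9% of all genes, and none fell, against 1.46%. Over the 13208 genes that reached 1 FPKM in at least 1 library, as all 34 did, the shares were larger. They were 6.28% and 1.74% for young mice, and 9.5% and 2.01% for adult mice. After median-of-ratios scaling Car9 and Car12 rose, against 4.43% of all genes, and Eno2 and Epas1 fell, against 2.9%. The median log2 ratio of the 34 genes was 0.02 for young and 0.34 for adult mice in FPKM, and 0.00 in both after median-of-ratios scaling. The ratio in adult mice was above 0 for 27 of 34 genes in FPKM, beside 67.2% of all genes, and for 17 after median-of-ratios scaling, beside 48.1%. It was above 0 for 28 in TPM, beside 71.7%, and for 20 in quantile scaling, beside 44.5%, so that this count depended on the scale.

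Between sham tissues, Epas1 and Ankrd37 were at least 2-fold higher in adult mice, 2 of 34 or 5.88%, against 2.66% of all genes. Slc16a1, Car9 and Car12 were at least 2-fold lower, 3 of 34 or 8.82%, against 10.6% of all genes. Over the 13208 genes that reached 1 FPKM in at least 1 library, 3.66% were higher and 14.6% lower. After median-of-ratios scaling Hk1 and Eno2 joined the higher genes, 4 of 34 against 5.85% of all genes, and the same 3 were lower, against 5.13%. For Hk1 the log2 ratio was 0.77 in FPKM and 1.20 after this scaling. The median ratio of the 34 genes was 0.02 in FPKM, beside -0.30 over the 10891 genes, and 0.42 beside 0.07 after scaling. The median of the 34 genes was above that of the 10891 genes on both scales. Over all 18180 genes above 0 in at least 1 library the median was -0.15 in FPKM and 0 after scaling, also below that of the 34.

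Between injured tissues, the 34 genes were mostly lower in young mice, and here the scales gave like results. The log2 ratio of young over adult injured was below 0 for 24 of 34 genes in FPKM, beside 40.6% of all genes, and for 28 of 34 in TPM, median-of-ratios and quantile scaling, beside 52.7%, 48.4% and 49.2% of all genes in that order. The median was -0.32 in FPKM and -0.44 after median-of-ratios scaling, beside 0.07 and -0.03 over the 10891 genes. Epas1, Egln1, Egln3, Ddit4 and Ankrd37 were at least 2-fold lower in young injured tissue, 5 of 34 or 14.7%, against 1.8% of all genes in FPKM. Over the 13208 genes that reached 1 FPKM in at least 1 library, 2.48% were lower and 4.25% higher. The same 5 genes were lower after median-of-ratios scaling, against 2.2% of all genes. None was 2-fold higher, against 3.09% in FPKM and 2.53% after scaling. Egln1 had the lowest ratio, at -1.31, and Slc16a1 the highest, at 0.79.

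The library with the highest level was adult injured for 18 of 34 genes, young injured for 7, adult sham for 5 and young sham for 4. Among all genes the shares in this order were 23.0%, 28.2%, 14.7% and 34.1%. After median-of-ratios scaling 13 were highest in adult injured, beside 20.3% of all genes, and 15 in adult sham, beside 30.7%. Young injured was then highest for 5, beside 21.7%, and young sham for 1, beside 27.2%.

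Other genes of the hypoxia response were taken from a list of 48, of which 46 were above 0 in at least 1 library. The 4 most abundant were Mif, Fam162a, Plod2 and P4ha1. In young mice 4 of 46 rose with injury and 0 fell, beside 4.56% and 1.27% of all genes. In adult mice 5 rose and 2 fell, beside 6.9% and 1.46% of all genes, and after median-of-ratios scaling 3 rose and 4 fell, beside 4.43% and 2.9%. Hmox1, which degrades heme, rose at both ages, in young mice from 8.90 to 189.8 FPKM and in adult mice from 6.98 to 132.9. Angptl4, a lipase inhibitor induced by HIF, rose in young mice from 1.73 to 18.9 FPKM and in adult mice from 3.46 to 31.5. Lox and Anln rose as well in young mice, and Tfrc, Anln and Adm in adult mice, while Loxl2 fell in adult mice. Hmox1 and Angptl4 thus had like ratios at both ages, unlike Bnip3 and Ddit4.

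The collagen-modifying enzyme Plod2 was at 297.3 and 275.2 FPKM in sham and injured tissue of young mice, and 125.7 and 249.3 FPKM in that of adult mice, and the mitochondrial protein Fam162a at 359.9, 293.2, 178.8 and 330.5. Both were lowest in adult sham. The log2 ratio of Fam162a for injury was -0.30 for young and 0.88 for adult mice (0.55 after median-of-ratios scaling). Between injured tissues Vegfa, Selenbp1, Adm, Insig2 and Cited2 were at least 2-fold lower in young mice, and Stc1 and Anln higher, beside 1.8% and 3.09% of all genes. After median-of-ratios scaling 7 were lower and 1 higher, beside 2.2% and 2.53%. Vegfa, the angiogenic factor under HIF control, was at 26, 19.8, 49.5 and 79.0 FPKM, a log2 ratio of young over adult injured of -1.94. The median ratio over the list was -0.12 for young and 0.38 for adult injury, and 0.10 in adult injury after median-of-ratios scaling. In sham tissue 7 of the list were at least 2-fold higher in adult mice and 5 lower, beside 2.66% and 10.6% of all genes. The lower genes were Tfrc, Stc1, Rcor2, Plod2 and Fam162a. After that scaling 12 were higher and 2 lower, beside 5.85% and 5.13%.

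Other genes of glycolysis and its side paths were taken from a further list of 48, of which 45 were above 0 in at least 1 library, led by Taldo1, Ppp1r3c, Mpc1 and Tkt. In young mice the sugar transporters Slc2a5 and Slc2a6 rose with injury, and Ppp1r3c and Eno3 fell, 2 of 45 each way beside 4.56% and 1.27% of all genes. In adult mice Slc2a6 rose, and Ppp1r3c, Eno3, Pgam2 and Slc2a4 fell, 1 and 4 of 45 beside 6.9% and 1.46% of all genes. After median-of-ratios scaling 0 rose and 6 fell, beside 4.43% and 2.9%. Ppp1r3c, which targets a phosphatase to glycogen, was at 117.0 FPKM in sham and 54.3 in injured tissue of young mice, and 148.2 and 63.1 in sham and injured tissue of adult mice, and fell at both ages. Eno3 and Pgam2 are the muscle forms of enolase and phosphoglycerate mutase and belong to the muscle markers, whose sum was also lower in injured tissue at both ages. Eno3 was at 45.0, 20.8, 56.1 and 20.1 FPKM. The part of muscle in the Eno3 and Pgam2 values was not tested. The median ratio over the list was -0.01 for young and 0.06 for adult injury, the latter -0.11 after median-of-ratios scaling. In sham tissue 2 genes of the list, Pygm and Slc2a5, were at least 2-fold higher in adult mice and 2, Mpc2 and Pdk3, lower, beside 2.66% and 10.6% of all genes. The counts were 5 and 1 after median-of-ratios scaling, beside 5.85% and 5.13%. Between injured tissues 0 of the list differed by 2-fold on either scale, where 3.09% of all genes were higher and 1.8% lower in young mice in FPKM, and 2.53% and 2.2% after scaling.

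**Figure D4:**
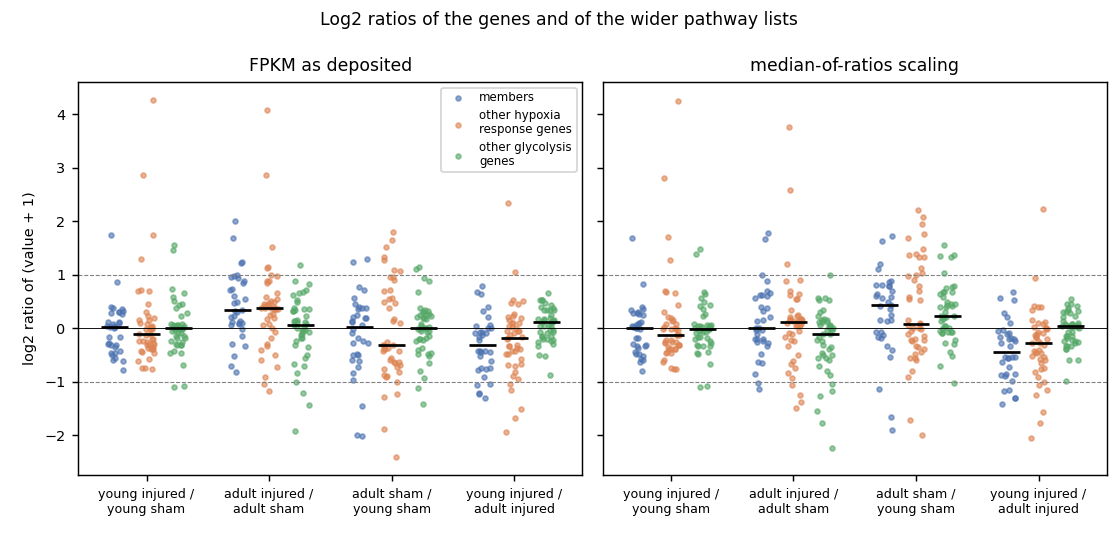
Log2 ratio of each of the 34 genes (blue), of the other hypoxia response genes (orange) and of the other glycolysis genes (green) in the 4 comparisons, from FPKM as deposited (left) and after median-of-ratios scaling (right). Bars are medians over a list and dashed lines mark 2-fold. In the comparison of injured tissues the 34 genes have a median of -0.32 on the left and -0.44 on the right, while the highest points of both injury comparisons are Hmox1 and Angptl4.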

How the data were processed

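RNA-seq values of 4 pooled cartilage libraries were analysed. Values were deposited by the authors as FPKM per gene on mm10, from stranded poly-A libraries. The submitters' processing notes name HISAT2 2.1.0, StringTie 1.3.4d, STAR and SAMtools without giving their roles. FPKM divide fragments by transcript length and by library total, so that a few very abundant genes in a library lower the values of its other genes. How reads shared by gene copies were divided is not given in the sources used here.

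The members, the wider gene lists and the alternatives were chosen with earlier results of these data known, so counts over them are descriptions. All members are named. From each wider list the 4 genes with the highest mean are named, and those past 2-fold in FPKM where 5 or fewer were, except that 1 list gene is not reported by name. Slc2a10 and Egln2 of the wider lists are named as well, beside their families. Log2 ratios were calculated on FPKM + 1 and called at 2-fold, beside the share of called genes among the 18180 genes above 0 in at least 1 library. Of these, 13208 reached 1 FPKM in at least 1 library. The others cannot pass 2-fold on FPKM + 1 and lower the share over all genes. With 1 library per group no p-value was calculated.

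Results were recomputed with 0.1 or 5 FPKM as the pseudocount, with genes under 1 FPKM in every library left out, with TPM, median-of-ratios and quantile scaling, with thresholds of 1.5-fold and 3-fold, and with Eno1 and Eno1b kept apart. Upstream sequences and coordinates came from RefSeq tables of GRCm38.p6. Shared sequence was counted as 31-base transcript words. Scripts were tested on simulated data. Calculations used Python 3.11.15, numpy 2.4.6, pandas 2.3.3, scipy 1.17.1 and matplotlib 3.10.9.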

Additional observations from a re-analysis of the deposited data

Results flagged for a closer look

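For 7 genes the injury ratio had opposite signs in young and adult mice under all 4 scalings. With 1 library per group this difference between the ages was not tested. The young log2 ratio minus the adult log2 ratio, on FPKM + 1 and then in brackets after median-of-ratios scaling, was -1.75 (-1.43) for Bnip3, -1.67 (-1.36) for Ddit4 and -1.40 (-1.13) for Aldoc. It was -1.28 (-0.96) for Pgam1 and -1.02 (-0.75) for Egln3, both short of 2-fold after scaling, and -0.94 (-0.62) for Egln1 and -0.72 (-0.40) for Pgk1. Each of these genes was lower in injured than in sham tissue in young mice and higher in adult mice, as was the case for 14.6% of all genes.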

How the results depend on the processing

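No paired analysis was possible because each group was 1 library. No ratio of a single gene that was past 2-fold changed its sign under any alternative. Whatever their sign, 13 values lost 2-fold, 19 reached it and 648 stayed on the same side of 2-fold. Ratios under 2-fold did change sign in TPM, median-of-ratios and quantile scaling. In that order the counts were 7, 1 and 3 in young injury and 1, 10 and 7 in adult injury. Between sham tissues they were 0, 6 and 5, and between injured tissues 4 under each. The other pseudocounts changed no sign. Each count below is of the 34 genes (35 with Eno1 and Eno1b apart), with the share of all genes called under the same setting in brackets. Leaving out genes under 1 FPKM in every library changed none of these counts, and the shares under that setting are given above.

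In the young injury comparison the 1 higher gene (4.56%) became 0 (1.88%) with a pseudocount of 5 and 2 at a threshold of 1.5-fold (9.49%) or with Eno1 and Eno1b apart (4.57%), while 3 were lower at 1.5-fold (4.81%), and the median was -0.09 in TPM and in quantile scaling. In the adult injury comparison the 4 higher genes (6.9%) became 2 with a pseudocount of 5 (2.39%), after median-of-ratios scaling (4.43%) or at 3-fold (2.43%), 3 in quantile scaling (3.99%), 6 with a pseudocount of 0.1 (15.9%), 10 in TPM (11.1%) and 13 at 1.5-fold (17.9%). The 0 lower genes (1.46%) became 2 after median-of-ratios scaling (2.9%) or at 1.5-fold (3.96%) and 1 in quantile scaling (2.69%). The adult median was 0.44 in TPM and 0.00 after median-of-ratios scaling, and 10 genes changed the sign of their ratio under the latter.

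Between sham tissues the 2 higher genes (2.66%) became 1 with a pseudocount of 5 (1.23%), 4 after median-of-ratios (5.85%) or quantile scaling (5.03%) or at 1.5-fold (6.53%), 3 with Eno1 and Eno1b apart (2.66%), and 0 at 3-fold (1.0%). The 3 lower genes (10.6%) became 1 with a pseudocount of 5 (3.69%), 4 in TPM (14.9%), 8 at 1.5-fold (25.1%) and 2 at 3-fold (2.78%), and the median was 0.42 after median-of-ratios and 0.29 in quantile scaling. Between injured tissues the 5 genes lower in young mice (1.8%) became 1 with a pseudocount of 5 (0.787%), 6 with a pseudocount of 0.1 (4.64%), in TPM (3.44%) or in quantile scaling (2.24%), 11 at 1.5-fold (5.51%) and 0 at 3-fold (0.528%), and 3 were higher at 1.5-fold (9.79%). The median was -0.51 in TPM, -0.44 after median-of-ratios scaling, -0.58 in quantile scaling and -0.22 with Eno1 and Eno1b apart. A pseudocount of 5 lowers the ratios of genes with low levels by its construction, and the cause of the other shifts was not tested.

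The limits are 1 pooled library per group, an adult sham library whose 10 highest genes held 26.5% of all FPKM, labels that disagree on adult age and on the injury, and marker sums of blood, muscle and bone cells that differed between libraries.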
